A study of Homo sapiens with 12 samples.

Results

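The genes described here write, copy or remove DNA methylation or place the Polycomb mark on histone H3. They are DNMT1, UHRF1, HELLS, DNMT3A, DNMT3B, TET1, TET2, TET3, EZH2 and SUZ12, chosen by name, and all 10 were found among the 25914 genes that the deposited tables list. The study treated 2 human cell lines for 24 h with 10 µM Nutlin-3a, which keeps MDM2 from binding p53, or with the solvent DMSO. The lines were HCT116, from a colon cancer, and hTERT-immortalized RPE-1, from noncancerous retinal pigment epithelium. Both are labelled as wild-type. With 3 RNA-seq libraries for each of the 4 groups (HCT116 DMSO, HCT116 Nutlin-3a, RPE-1 DMSO and RPE-1 Nutlin-3a), the series held 12 libraries.

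Per gene, both deposited tables gave a base mean, which is a read count divided by a size factor for each library and averaged over libraries. The remaining columns compare the treatments as the authors tested them, and are not used here. The response of these genes to Nutlin-3a was therefore not analysed here, and no difference between cell lines or treatments was tested. The base mean was identical in both tables for all 25914 genes, so that it belongs to neither cell line alone. Which libraries it averages was not given in the sources used here. It carries no replicate values, hence no SD and no n, and the number of reads per library is unknown.

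Methylation of cytosine in CpG dinucleotides is copied at each round of replication. UHRF1 binds the hemimethylated CpG left behind the fork and brings in DNMT1, which methylates the new strand, and HELLS is a chromatin remodeller that makes nucleosomal DNA accessible to this machinery. DNMT3A and DNMT3B methylate sites that were not methylated before, and the TET enzymes oxidize 5-methylcytosine, the first step of its removal. Polycomb repressive complex 2 (PRC2) trimethylates a lysine of histone H3 through its catalytic subunit EZH2, which is active only together with SUZ12 and EED.

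DNMT1 had the highest base mean of the 10 genes and TET1 the lowest. DNMT1 (ENSG00000130816, chr19:10133342-10231286, minus strand, 41 exons in its MANE Select transcript) stood at 6009 normalized reads, rank 884 of all listed genes. TET1 (ENSG00000138336, chr10:68560337-68694487, plus strand, 12 exons) stood at 340.9, rank 10664. Coordinates are those of GENCODE 44 on GRCh38. The median over the 10 genes was 1452, against a median of 149.8 over all listed genes and of 650.6 over the 15758 protein-coding ones. With the exception of TET1, the members lay above the protein-coding median, 9 of 10. Their base means thus spanned a 17.6-fold range, but a longer transcript collects more reads, and the members were therefore compared with each other per kb of exon.

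**Figure D1:**
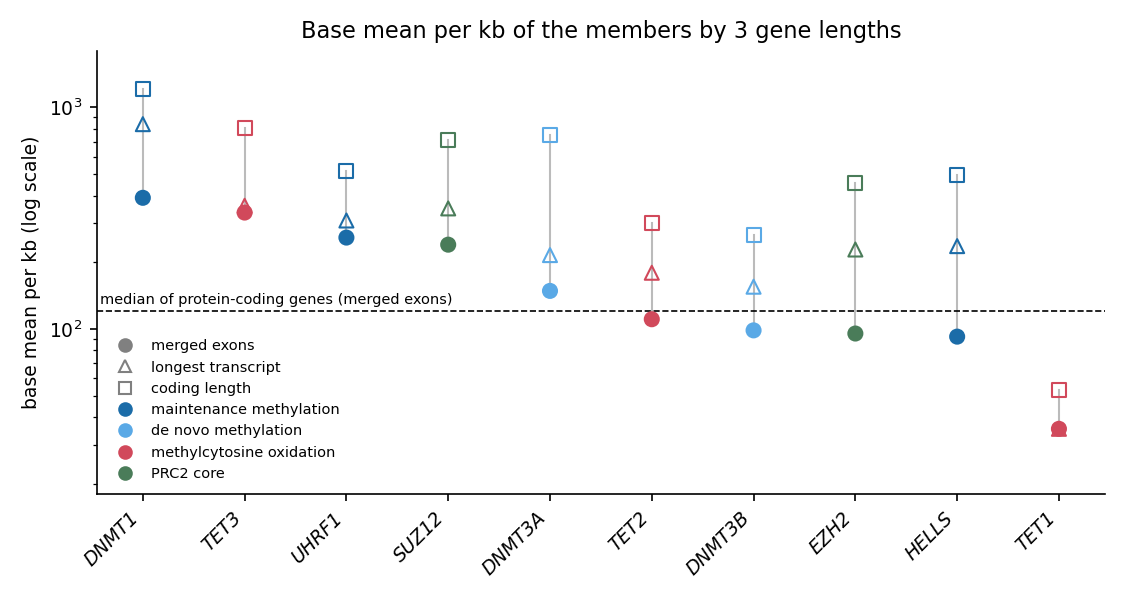
Base mean per kb of each member (log axis), divided by the merged length of its annotated exons (filled circles), by its longest transcript (triangles) or by its longest coding length (squares), with colours for the 4 roles and no error bars because the base mean has no replicates. DNMT1, TET3 and TET1 keep the 1st, 2nd and last place under all 3 lengths, while HELLS moves from 92.4 per kb to 236.5 and 495.7.

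Among the genes of maintenance methylation, DNMT1 stood above its partners per kb. With exons of all transcripts merged, DNMT1 had 390.7 normalized reads per kb, the highest of the 10 genes, and lay above 79.1% of protein-coding genes. UHRF1 (ENSG00000276043, chr19:4903080-4962154, plus strand, 17 exons), the reader of hemimethylated DNA, had a base mean of 1330 and 258.5 per kb. HELLS (ENSG00000119969, chr10:94545329-94613905, plus strand, 22 exons) had nearly the same base mean, 1315, yet only 92.4 per kb. The gap between UHRF1 and HELLS depended on the length used, as merged exons of HELLS add up to 14231 bases and its longest transcript has 5558. With the longest transcript in place of merged exons, UHRF1 had 308.7 per kb and HELLS 236.5, a ratio of 1.30, and with the coding length the ratio was 1.04. DNMT1 was above both under each length, 1.51-fold above UHRF1 with merged exons, 2.72-fold with the longest transcript and 2.34-fold with the coding length.

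Of the de novo methyltransferases, DNMT3A was listed above DNMT3B. DNMT3A (ENSG00000119772, chr2:25227855-25342590, minus strand, 23 exons) had a base mean of 2047 and 148.6 per kb, whereas DNMT3B (ENSG00000088305, chr20:32762385-32809359, plus strand, 23 exons) had 678.0 and 98.6 per kb. The ratio of DNMT3A to DNMT3B was 1.51 with merged exons, 1.39 with the longest transcript and 2.82 with the coding length. Both lay below DNMT1, by 2.63-fold for DNMT3A and by 3.96-fold for DNMT3B per kb of merged exons. DNMT3B is best known from pluripotent and early embryonic cells, and DNMT3L, a catalytically inactive cofactor of both enzymes, was not among the listed genes.

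The TET genes were the most uneven family. TET3 (ENSG00000187605, chr2:73984910-74108176, plus strand, 12 exons) had a base mean of 4339 and 335.2 per kb, second to DNMT1 among the 10 genes. TET2 (ENSG00000168769, chr4:105145875-105279816, plus strand, 11 exons) had 1824 and 110.7 per kb, and TET1 had 35.5 per kb, which lay above only 28.9% of protein-coding genes. TET3 was thus 3.03-fold above TET2 and 9.45-fold above TET1 per kb of merged exons. With the longest transcript these ratios were 2.01 and 10.1, and with the coding length 2.68 and 15.1. The order of TET3, TET2 and TET1 was the same under the 3 lengths.

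Of the PRC2 subunits, SUZ12 was listed above EZH2. SUZ12 (ENSG00000178691, chr17:31937007-32001038, plus strand, 16 exons) had a base mean of 1573 and 240.2 per kb. EZH2 (ENSG00000106462, chr7:148807257-148884321, minus strand, 20 exons) had 1028 and 95.4 per kb. SUZ12 was 2.52-fold above EZH2 with merged exons, 1.53-fold with the longest transcript and 1.56-fold with the coding length. EZH1, the other catalytic subunit, had a base mean of 797.9 and 114.2 per kb, and EED, the reader of the mark, had 471.5 and 67.4 per kb. Whether EZH2 or EZH1 was listed higher depended on the length, since the ratio of EZH2 to EZH1 was 0.836 with merged exons, 1.33 with the longest transcript and 1.28 with the coding length.

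Without replicate values, none of these ratios has an error, and neighbours in the order cannot be told apart by a test. Only 5 of the 10 genes lay above the protein-coding median of 120.3 per kb with merged exons. The count was 8 with the longest transcript and 7 with the coding length, each against the median of protein-coding genes under the same length. In bulk RNA, a smaller share of cells expressing a gene cannot be told apart from less RNA per cell. The base mean is also not split by cell line or treatment. Whether any order or ratio given here holds in each line, or with and without Nutlin-3a, was therefore not tested.

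Other genes of DNA methylation and Polycomb had a similar median base mean but, with merged exons, a higher median per kb than the 10 genes. Of 49 such genes, 48 were listed. Per kb of merged exons, their median was 252.6 against 129.6 for the 10 genes, and 40 of 48 lay above the protein-coding median against 5 of 10. For the 10 genes, this count was 8 with the longest transcript and 7 with the coding length. The median and count of the 48 genes were not computed under those lengths, so whether the gap holds there was not tested. The lowest of the 48 per kb of merged exons was KDM6A at 37.0 and the highest PCNA at 2459. Their median base mean was 1431 against 1452, with extremes of 363.3 for PHC1 and 9919 for CBX6, both subunits of PRC1, and CBX6 lay above all 10 genes. The base means that follow describe each list and, not being per length, do not rank its genes by level. Readers and repair enzymes of methylated DNA ran from 782.4 for TDG, the glycosylase that excises the products of TET enzymes, to 5414 for ZBTB38, a zinc finger protein that binds methylated DNA. Cofactors of methylation ran from 536.0 for CDCA7, which recruits HELLS, to 5951 for USP7, a deubiquitinase that stabilizes UHRF1 and DNMT1. PCNA, the replication clamp that DNMT1 binds, had 3450 normalized reads and, as a short gene, 2459 per kb. The other PRC2 subunits ran from 471.5 for EED to 4756 for RBBP4, a histone chaperone shared with other complexes. Their list also holds EZHIP, an inhibitor of PRC2, at 371.0. Enzymes that remove Polycomb marks, with their cofactors, ran from 1026 for KDM6A, a demethylase of the PRC2 mark, to 4719 for ASXL1, a partner of the deubiquitinase BAP1. UHRF2, the paralogue of UHRF1, had 104.6 per kb, with a ratio of UHRF1 to UHRF2 of 2.47 with merged exons but of 1.11 with the longest transcript.

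**Figure D2:**
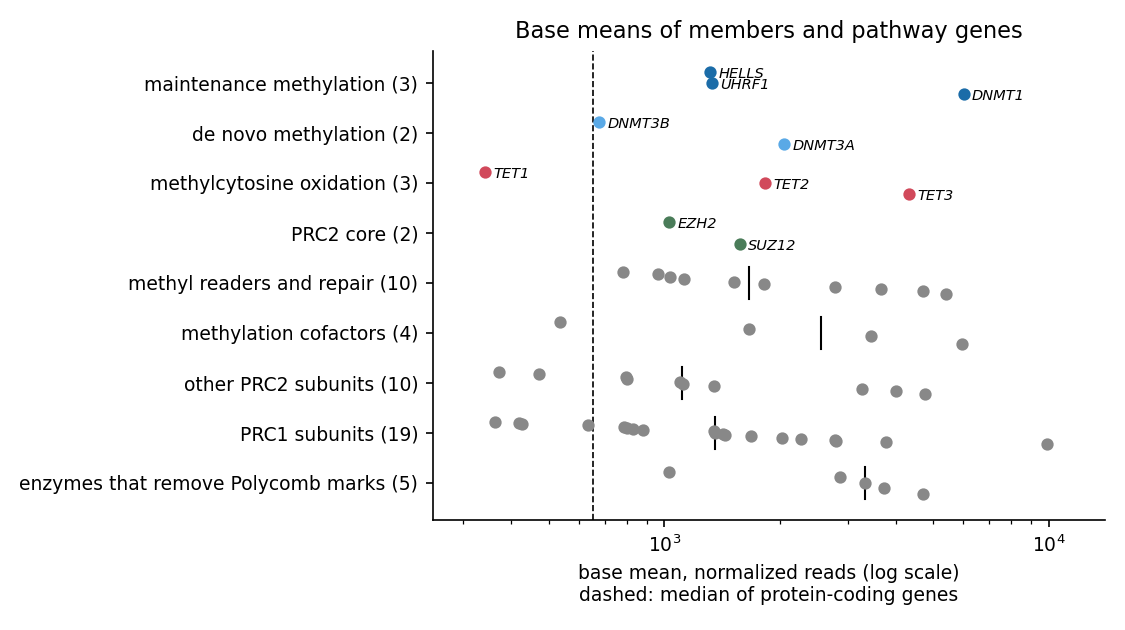
Base mean of each gene (log axis) in the 4 roles of the members (coloured and named) and in the 5 lists of other pathway genes (grey, with the number of listed genes in brackets and a black line at the list's median). The dashed line is the protein-coding median of 650.6, and TET1 at 340.9 is the only member to its left.

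Markers of both cell lines were read from the same pooled values. Of the 7 colon markers, CDX1 was not listed, and the base means of the other 6 were 13336 for CDH1, 2480 for EPCAM, 248.0 for CDX2, 35.1 for KRT20, 12.1 for LGR5 and 5.68 for VIL1. KRT20, LGR5 and VIL1 lay below the median of all listed genes, 149.8. The 4 mesenchymal markers had base means of 71801 for FN1, 63458 for VIM, 3341 for CDH2 and 121.8 for TWIST2, the last below the median of all listed genes. Of the 7 markers of retinal pigment epithelium, RPE65 and RLBP1 were not listed, and the other 5 lay between 64.7 for OTX2 and 483.9 for MITF. All of these 5 but MITF were below the median of all listed genes. These values cannot be assigned to one line.

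Neighbouring genes could share reads with a few members. Overlaps are counted as bases of a member's exons within the whole span of the neighbouring gene, including its introns. Overlap between exons of both genes was not computed and may be smaller. In GENCODE 44, exons of DNMT1 overlap S1PR2 on the same strand by 83 bases, and S1PR2 had a base mean of 395.7. Exons of TET3 overlap the long noncoding RNA gene ENSG00000235499 on the same strand by 390 bases, at a base mean of 180.7 or 4.17% of that of TET3. Exons of HELLS overlap the long noncoding RNA gene ENSG00000244332 by 6940 bases on the same strand, and this gene was not listed. The pseudogene SUZ12P1 had a base mean of 318.4, 20.2% of that of SUZ12, and EZH2P1 had 125.0, 12.2% of that of EZH2. The authors' methods for RPE-1 keep uniquely mapped reads, and how reads divide between these copies and their parents is uncertain. The pseudogene COX20P1 lies in TET1 on the same strand without exon overlap, and had a base mean of 187.9, 55.1% of that of TET1. TET2-AS1 lies on the opposite strand within TET2, without exon overlap, and was not listed.

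The promoters of the members were compared as well, since CpG is the substrate of the DNA methyltransferases and CpG islands are where Polycomb complexes are mostly found. RefSeq windows on GRCh38.p14 from 250 bases before to 50 bases after a start were used, with the 1 nearest to the start of the MANE Select transcript. For 9 members, the RefSeq start was the same base as the MANE Select start. The RefSeq window of DNMT3B lies 17467 bases from it and was left out. Together the 9 members have 21 RefSeq windows, 3 of them for TET1. Only the window at the MANE Select start was described for each. The 9 windows were compared with those of 11827 listed protein-coding genes whose window lay within 50 bases of the start.

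Most of these promoters were rich in CpG, as were most protein-coding windows. The observed to expected CpG ratio, which is 1 where CpG is as frequent as the C and G content predicts, was above 0.6 in 8 of 9 windows, close to the 81.2% of the protein-coding windows. DNMT3A and TET3 had the highest GC contents, 83.0% and 82.7%, above 98.5% and 98.3% of protein-coding windows. EZH2 had the highest CpG ratio, 1.10, with 46 CpG in 300 bases. TET1 stood apart with a GC content of 54.3%, a CpG ratio of 0.463 and 10 CpG, and lay above only 13.8% of windows in the ratio. The 100 bases before the start of TET3 (chr2:73984810-73984909, plus strand) and of TET1 (chr10:68560237-68560336, plus strand) show this contrast, with 19 and 5 CpG in capitals.
TET3: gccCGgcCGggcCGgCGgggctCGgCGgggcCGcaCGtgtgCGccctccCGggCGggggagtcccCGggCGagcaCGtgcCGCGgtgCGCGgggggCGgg
TET1: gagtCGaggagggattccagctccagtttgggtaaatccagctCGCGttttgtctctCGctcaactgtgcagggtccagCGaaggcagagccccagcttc

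**Figure D3:**
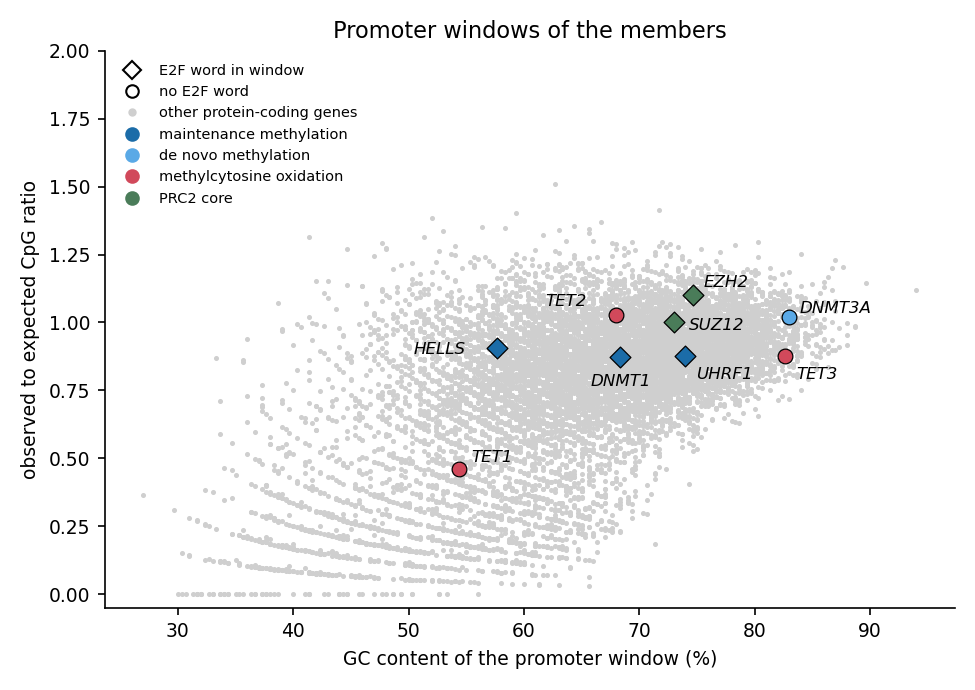
GC content (%) against the observed to expected CpG ratio in promoter windows of 300 bases, for 9 members (coloured by role; diamonds hold an E2F word) and for the 11827 protein-coding genes (grey), without error bars because each point is a single sequence. TET1 lies at 54.3% and 0.463, and the other 8 members have ratios from 0.874 to 1.10.

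Words of the E2F binding site stood in 5 of the 9 windows, those of DNMT1, UHRF1, HELLS, EZH2 and SUZ12. E2F factors control genes of S phase, and the DREAM complex represses such genes through E2F words and CHR. The words searched on both strands were TTTCCCGC, TTTGGCGC, TTTCGCGC and TTTGCCGC, and 5.14% of protein-coding windows and 3.31% of all 35116 RefSeq windows held at least 1 of them. DNMT3A and the TET genes held none. Within the 100 bases before the start alone, the count was 2 of 9, UHRF1 and HELLS, against 1.76% of protein-coding windows. The matches are given 5′ to 3′ on the gene's strand with the word in capitals, which reads as its reverse complement where it lies on the opposite strand. Positions are counted from 0 at the start base. The word lies on the opposite strand at position -2 in DNMT1, -14 in UHRF1 and -76 in HELLS, and on the gene's strand at -8 in HELLS, 1 in EZH2 and -189 in SUZ12.
DNMT1, chr19:10194938-10194965, minus strand: atcggtttccGCGCGAAAagccggggcg
UHRF1, chr19:4909477-4909504, plus strand: ccgagttttcGCGGGAAAaaaatcagag
HELLS, chr10:94545702-94545729, plus strand: accgcaagctGCGCCAAAtctcgcgcag
HELLS, chr10:94545770-94545797, plus strand: atgacaggatTTTCCCGCgaaggagaag
EZH2, chr7:148884273-148884300, minus strand: ggctgccgcgTTTGGCGCtcggtccggt
SUZ12, chr17:31936808-31936835, plus strand: gacccctaatTTTCCCGCgaattcagtt

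HELLS held 2 such words and the other carriers 1 each. Of the 39 other pathway genes with a window at their start, 4 held a word, CDCA7, EZH1, MTF2 and PHF19, a share of 10.3%. No test was made of these shares, and members, gene lists and motifs were chosen with earlier results of these data known. A match in these windows describes the sequence and is not a bound site, and its absence says only that these letters are not in the window.

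The CCAAT box, bound by NF-Y, was searched as CCAAT and stood in 4 of 9 windows, those of UHRF1, HELLS, EZH2 and SUZ12, against 37.0% of protein-coding windows. EZH2 alone held 4 copies, at positions -94, -66, -47 and -13. Copies per window were counted only in the members, for this and the other motifs, so they have no background here. The 100 bases before its start (chr7:148884292-148884391, minus strand) show them with a GC box, all in capitals, where ATTGG is the reverse complement of the box.
EZH2: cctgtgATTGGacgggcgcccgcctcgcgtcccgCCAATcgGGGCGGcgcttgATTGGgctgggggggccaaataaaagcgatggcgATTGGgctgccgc

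The GC box, GGGCGG, bound by SP1, stood in 7 of 9 windows, against 71.1% of protein-coding ones. DNMT1 and TET1 lacked it, and TET2 held the most copies, 5. The cell cycle gene homology region (CHR), which DREAM binds, was searched as TTTGAA or TTCGAA and stood in 1 of 9 windows, that of SUZ12 at position -173, against 11.0% of protein-coding windows. Shares near those of protein-coding windows, as for the GC box, CCAAT box, CHR and a CpG ratio above 0.6, are no feature of these genes.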

How the data were processed

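RNA-seq was made from HCT116 and RPE-1 cells treated with Nutlin-3a or DMSO, with 3 libraries per group. Groups were taken from the sample titles. Per the labels, total RNA was depleted of ribosomal RNA, whereas the methods of the paper describe poly(A) selection, and which was used here is uncertain. This affects which transcripts the reads cover.

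The deposited signal is the base mean, the mean over libraries of counts that the authors divided by DESeq2 size factors. The methods of the paper describe RPE-1 but not HCT116 cells, and how far they hold for HCT116 is uncertain. By them, reads were trimmed, corrected, mapped to hg38 with Ensembl 102 by segemehl, kept where uniquely mapped and counted over exons by strand. The submitters' processing notes name Trimmomatic 0.39, cutadapt 3.3, SAMtools 1.12, featureCounts 2.0.1 and DESeq2 1.32.0, and the paper names other versions of some. Per table, 5 further columns hold the authors' own comparison (log2 fold change, its standard error, test statistic, p-value and adjusted p-value) and were not used, so that no test was made. Values per library were not analysed here, and depth and its precision are unknown.

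Base means were ranked among all listed genes and divided by lengths from GENCODE 44 (same genome build), in which 25836 listed genes were found. GENCODE 44 is a later annotation than Ensembl 102, so its lengths may include exons over which no reads were counted. The effect on values per kb, their ratios and percentiles was not tested. Merged exons, the longest transcript and the longest coding length were used in turn. The coding length was taken from GENCODE because protein sequences were not used here. Promoters came from RefSeq on GRCh38.p14. Members, gene lists and motifs were chosen with earlier results of these data known. Named were the 10 members, the genes with the highest and lowest base mean of each list, and, after their values were seen, PCNA, UHRF2, EED, EZH1, DNMT3L, the remaining colon and mesenchymal markers, RPE65, RLBP1, neighbouring genes and the other pathway genes with an E2F word. Motif and percentile functions were tested on simulated data. Computation was done in Python 3.11.15, with matplotlib 3.10.9 for plots, scipy 1.17.1 for binomial intervals that set when a percentile had moved, and pandas 2.3.3 on numpy 2.4.6 for tables.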

Additional observations from a re-analysis of the deposited data

How the results depend on the processing

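The median percentile of the members by base mean was 80.6 among all listed genes, 75.8 among genes with a base mean of at least 10 and 69.6 among protein-coding genes. The median per kb was 129.6 with merged exons, 506.5 with the coding length and 232.5 with the longest transcript. Relative to merged exons, 6 members changed place in the order with the coding length and 7 with the longest transcript, which follows from the lengths alone. In the 100 bases before the start, E2F words were found in 2 windows in place of 5 (1.76% of protein-coding windows in place of 5.14%). The CCAAT box was found in 3 in place of 4 (22.6% of protein-coding windows in place of 37.0%). The CHR was found in 0 in place of 1 (2.61% in place of 11.0%), and the GC box in 6 in place of 7 (53.5% in place of 71.1%). Of the E2F words lost, that of DNMT1 reaches past the start, where this window ends. The word of EZH2 lies wholly after the start base, and that of SUZ12 lies before the window. There, the median GC content was 68.0% in place of 73.0% and the median CpG ratio 1.03 in place of 0.908. Taking the nearest window of all 10 members, a choice made after seeing the data, added DNMT3B with a CCAAT box and no other motif.

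No paired analysis was possible because the values used hold no libraries. For the same reason the planned fits of Nutlin-3a against DMSO, with edgeR or limma, and the omission of single replicates were not run. The planned comparison of protein sequences was also not run. No value has a replicate error, so differences between members are descriptions.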
